A study of Mus musculus with 20 samples.

Results

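The mouse pluripotency network includes the transcription and chromatin factors Pou5f1, Sox2, Nanog, Sall4 and Utf1, which were followed here through the conversion of embryonic stem cells into epiblast stem cells. They were taken by symbol, 5 genes of the 23361 entries in the count tables, and all 5 passed the filter on low counts in both lines. RNA came from the female ES line PGK and from E14, a male ES line, both kept in 2i medium at day 0 and then moved to N2B27 medium with activin A and Fgf2 on fibronectin. Libraries were made at 5 stages, day 0, day 4, day 10, days 19 to 23 and days 27 to 30, once in each of 2 rounds of differentiation, diff2 and diff3, for 20 libraries in 10 groups of 2. The later stages were taken at days 23 and 29 (diff2) and 21 and 29 (diff3) in PGK and at days 21 and 27 (diff2) and 19 and 30 (diff3) in E14. The labels name no mutation or transgene for any group, and 2i cells of the same line serve as day 0 throughout. With 1 line of each sex, a difference between lines and one between sexes cannot be told apart.

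Naive embryonic stem cells resemble the epiblast before implantation and epiblast stem cells the primed epiblast after it, and both are pluripotent. Pou5f1 (Oct4) is a POU-domain factor without which neither state is kept, and it pairs with the HMG-box factor Sox2 on DNA where an octamer and a Sox site lie side by side. Nanog is a homeodomain factor that stabilises the naive state, Sall4 a zinc-finger factor that binds the histone deacetylase complex NuRD, and Utf1 a chromatin-bound protein of pluripotent cells that Oct4 and Sox2 are known to activate through an enhancer.

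Total counts per library lay between 11847559 and 26936415, except in the diff3 libraries of E14 at day 0 (3376500) and at day 4 (2020254). The lowest count of a member in any library was 102, for Sox2, so each member was far above the limit of detection everywhere. The state of the cells was described by marker lists. Summed levels of 16 naive genes, Klf4 and Esrrb among them, were 379 to 554 CPM in PGK at day 4, against 4520 to 5877 CPM at day 0, and 240 to 273 CPM in E14 at day 4, against 5601 to 7725 CPM at day 0. CPM is the raw count of a gene divided by the total of its library and multiplied by 1000000. By edgeR at day 4 in PGK, 14 of the 16 naive genes were called lower (6.44% of all genes) and 1 higher (8.35%). In E14 13 of 15 tested were lower (4.4%) and 1 higher (5.16%). The higher one was Nr6a1 in both lines, so the list did not move as a whole. The 16 primed genes, Fgf5 and Dnmt3b among them, summed to 2697 to 3546 CPM in PGK at day 4, against 328 to 342 CPM at day 0, and 3284 to 4625 CPM in E14 at day 4, against 312 to 339 CPM at day 0. The labelled states stood apart by these sums, with no overlap between the 2 stages in either line. The lists were chosen with earlier results of these data known, so this is a description and not an independent check.

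The genes lie on 5 chromosomes. In GRCm38 with GENCODE M21, Pou5f1 spans chr17:35506018-35510772 on the plus strand, Sox2 chr3:34650405-34652461 (plus), Nanog chr6:122707489-122714633 (plus), Sall4 chr2:168748332-168767943 (minus) and Utf1 chr7:139943789-139945112 (plus), all protein coding. Sox2 lies within the noncoding gene Sox2ot on the same strand, which held 0 to 1.73 CPM. An antisense entry overlaps Pou5f1 (Gm19553) and Sall4 (Gm14261), and Nanog has the pseudogenes Nanog-ps1 and Nanog-ps2. Whether strand was used in counting is not given in the sources used here, so reads shared with these neighbours and copies cannot be told apart.

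The promoters are shown because Oct4 and Sox2 bind such sequences, and the windows differ from gene to gene in the motifs they hold. RefSeq start windows of GRCm38.p6 were matched for 4 of the 5 genes, Pou5f1, Sox2, Nanog and Utf1. Pou5f1 and Nanog have 2 windows each, of which the first listed was used, and Sox2 and Utf1 have 1. The sequences run 5′ to 3′ on the gene's strand. Each window held the 250 bases before the RefSeq start, and the print ends before the GENCODE start where that comes first. For this reason 236 bases are printed for Pou5f1 and 183 for Utf1. For Sox2 the RefSeq start lies upstream of the GENCODE start. Capitals mark the octamer core ATGCAAA, the Sox site CATTGT, their composite and the GC box GGGCGG, searched on both strands.
Pou5f1 (chr17:35505782-35506017, plus): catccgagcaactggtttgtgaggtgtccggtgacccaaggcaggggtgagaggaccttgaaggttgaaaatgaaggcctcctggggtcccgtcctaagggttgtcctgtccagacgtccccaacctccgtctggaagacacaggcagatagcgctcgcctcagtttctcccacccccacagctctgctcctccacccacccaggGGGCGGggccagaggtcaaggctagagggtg
Sox2 (chr3:34649745-34649994, plus): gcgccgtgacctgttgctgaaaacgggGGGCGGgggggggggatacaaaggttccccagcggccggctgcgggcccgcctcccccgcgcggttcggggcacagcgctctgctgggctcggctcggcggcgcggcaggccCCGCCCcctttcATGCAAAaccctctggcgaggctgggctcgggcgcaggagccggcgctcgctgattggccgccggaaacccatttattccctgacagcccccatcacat
Nanog (chr6:122707239-122707488, plus): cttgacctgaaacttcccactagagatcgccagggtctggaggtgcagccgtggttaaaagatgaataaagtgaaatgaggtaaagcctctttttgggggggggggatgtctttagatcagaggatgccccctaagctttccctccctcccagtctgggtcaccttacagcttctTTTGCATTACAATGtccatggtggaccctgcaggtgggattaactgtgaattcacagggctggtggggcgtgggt
Utf1 (chr7:139943606-139943788, plus): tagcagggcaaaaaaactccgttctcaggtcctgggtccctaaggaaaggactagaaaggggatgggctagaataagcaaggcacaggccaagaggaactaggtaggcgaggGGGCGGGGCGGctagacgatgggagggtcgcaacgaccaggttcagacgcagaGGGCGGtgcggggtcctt

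In the Nanog window, an octamer core and a Sox site 1 base apart form the composite TTTGCATTACAATG at −75 to −62, counted in bases from the start. Its letters are those of CATTGTNATGCAAA on the other strand, where N is any base. Of 32851 promoter windows in the table, 2 held this composite (0.00609%), and both belong to Nanog. An octamer core without a Sox site beside it stands at −99 to −93 in the Sox2 window, and 4.12% of all windows hold that core. The Sox site occurs in 10.7% of windows and, among the 4 windows used, only in that of Nanog. GC boxes, found in 32.7% of windows, numbered 1 in Pou5f1, 2 in Sox2 and 4 in Utf1, of which 1 lies downstream of the printed stretch and 2 overlap by a base. The Nanog window holds none, and the TATA box TATAAA (12.4% of windows) was in none of the 4 windows used. Over the 250 bases of a window, printed or not, CpG dinucleotides numbered 8 in Pou5f1, 27 in Sox2, 3 in Nanog and 14 in Utf1. The median over all windows was 6. GC content was 62%, 72%, 52% and 61.6%, beside a median of 52.4%. A match is a description of letters in these windows and not a measured binding site.

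**Figure D1:**
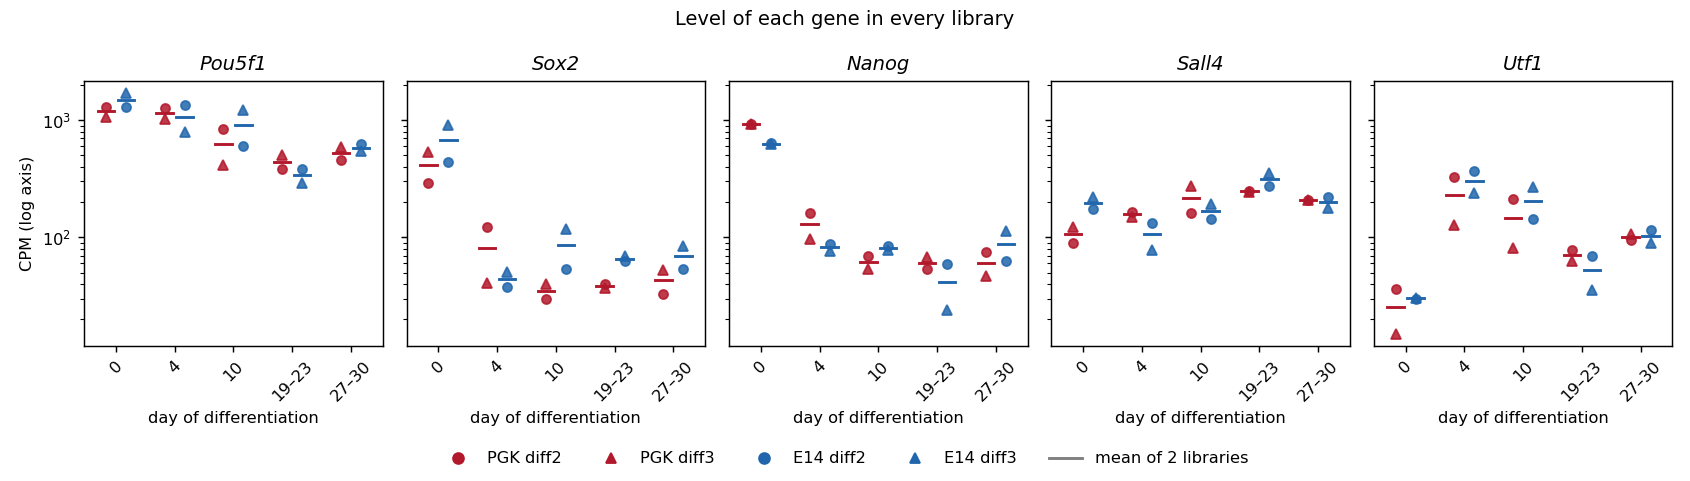
CPM on a log axis of Pou5f1, Sox2, Nanog, Sall4 and Utf1 in each of the 20 libraries by day of differentiation, PGK in red left of E14 in blue, with circles for diff2, triangles for diff3 and bars for the mean of the 2 libraries of a group. Nanog and Sox2 stood highest at day 0, Utf1 lowest at day 0 and highest at day 4, and Pou5f1 moved least at day 4.

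Per kilobase of exon, Pou5f1 was the most abundant of the 5 genes in each of the 20 libraries, and its CPM was lower in the late stages than at day 0. In PGK it measured 1302 and 1074 CPM at day 0 (diff2 and diff3, the order used for each pair below), 1270 and 1016 CPM on day 4, 842 and 416 CPM on day 10, 381 and 501 CPM at days 19 to 23, and 459 and 588 CPM at days 27 to 30. In E14 the values were 1299 and 1705 CPM at day 0, 1348 and 791 CPM on day 4, 606 and 1215 CPM on day 10, 385 and 293 CPM at days 19 to 23, and 622 and 547 CPM at days 27 to 30. Day 4 overlapped day 0 in both lines, and the 2 late stages lay below day 0 in every library, while the order of day 10 differed between experiments, diff2 being the higher in PGK and diff3 in E14. Its lowest and highest libraries differed 5.81-fold.

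The day 4 change of Pou5f1 did not pass the test in PGK (log2 fold change −0.12, SE 0.31) or in E14 (−0.45, SE 0.41), with adjusted p = 0.843 and 0.535 in edgeR. Late in PGK it averaged 523 ± 91.8 CPM at days 27 to 30, against 1188 ± 161 CPM at day 0 (SD, n = 2), and fell by 1.26 on the log2 scale (SE 0.31, edgeR adjusted p = 0.0153). That call rests on few libraries: the adjusted p was 0.0582 without the diff2 library of day 0, and 0.102 and 0.0534 without the diff2 or the diff3 library of days 27 to 30. In E14 it averaged 585 ± 53.3 CPM at days 27 to 30, against 1502 ± 287 CPM at day 0, a log2 fold change of −1.35 (SE 0.42) that missed the threshold (edgeR adjusted p = 0.0552) and passed it with another scaling of the libraries (0.0452 with RLE size factors), with DESeq2 (0.0179) and with limma on the deposited log2 values (0.038). In bulk RNA, fewer cells that express a gene and less RNA per cell cannot be told apart, here and below.

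Sox2 was several-fold lower by day 4 and stayed low. In PGK it measured 293 and 537 CPM at day 0, 122 and 41.1 CPM on day 4, 30.0 and 40.1 CPM on day 10, 40.1 and 37.1 CPM at days 19 to 23, and 33.1 and 52.8 CPM at days 27 to 30. E14 cells held 443 and 912 CPM at day 0, 37.6 and 50.5 CPM on day 4, 53.5 and 119 CPM on day 10, 62.3 and 68.7 CPM at days 19 to 23, and 53.6 and 83.9 CPM at days 27 to 30. Every later library lay below both day 0 libraries of its line, and the stages after day 4 overlapped one another. The 2 day 4 libraries of PGK differed more than those of E14, with diff2 the higher.

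By day 4 Sox2 fell by 2.42 on the log2 scale in PGK (SE 0.49, edgeR adjusted p = 0.00844) and had a log2 fold change of −3.90 in E14 (SE 0.52, adjusted p = 0.00148). The PGK estimate depended on which day 4 library was kept, with a log2 fold change of −3.34 when diff2 was left out and −1.82 when diff3 was left out, both still called (adjusted p = 0.00115 and 0.0300). Late in the series the log2 fold change of Sox2 was −3.35 in PGK (SE 0.51, adjusted p = 0.00115) and −3.29 in E14 (SE 0.50, adjusted p = 0.00243). All comparisons with day 0 in a line use the same 2 day 0 libraries.

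Nanog was also several-fold lower by day 4, and its day 0 replicates were close. Its levels in PGK were 927 and 935 CPM at day 0, 161 and 97.1 CPM on day 4, 69.4 and 54.1 CPM on day 10, 53.4 and 68.4 CPM at days 19 to 23, and 74.4 and 46.8 CPM at days 27 to 30. Those in E14 were 639 and 622 CPM at day 0, 87.5 and 76.7 CPM on day 4, 84.8 and 77.9 CPM on day 10, 58.7 and 24.2 CPM at days 19 to 23, and 62.9 and 112 CPM at days 27 to 30. The day 0 libraries stood apart from all later ones in both lines. In PGK both day 4 libraries also stood above every later library, and in E14 day 4 lay within the range of the later stages.

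The log2 fold change of Nanog at day 4 was −2.92 in PGK (SE 0.31, edgeR adjusted p = 0.00026) and −2.91 in E14 (SE 0.45, adjusted p = 0.0033). Against day 0 the change at days 27 to 30 was −4.02 in PGK (SE 0.33, adjusted p = 4.37e-05) and −2.86 in E14 (SE 0.45, adjusted p = 0.00291). Leaving out the shallow diff3 library of E14 at day 4 took the E14 day 4 call just past the threshold (adjusted p = 0.0533, log2 fold change −2.82), as did leaving out both shallow libraries (0.0541, −2.87). Nanog was never lost: its lowest library, diff3 of E14 at days 19 to 23, still held 24.2 CPM, and the highest library stood 38.6-fold above it.

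Sall4 did not follow the other factors. PGK cells held 89.8 and 123 CPM at day 0, 164 and 150 CPM on day 4, 162 and 273 CPM on day 10, 248 and 246 CPM at days 19 to 23, and 209 and 207 CPM at days 27 to 30. E14 cells held 174 and 223 CPM at day 0, 134 and 78.2 CPM on day 4, 143 and 194 CPM on day 10, 277 and 357 CPM at days 19 to 23, and 220 and 180 CPM at days 27 to 30. All later PGK libraries lay above day 0, whereas in E14 day 4 lay below day 0, days 19 to 23 above it and the other stages overlapped it.

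The edgeR test called Sall4 in 1 of its 4 comparisons with day 0: it rose by 0.89 on the log2 scale at days 27 to 30 in PGK (SE 0.27, adjusted p = 0.0353). The call was lost without the diff2 library of day 0 (adjusted p = 0.165), or without the diff2 (0.105) or the diff3 library (0.128) of days 27 to 30. Its day 4 changes were 0.50 in PGK (SE 0.27, adjusted p = 0.239) and −0.86 in E14 (SE 0.36, adjusted p = 0.172), and its late change in E14 was 0.02 (SE 0.36, adjusted p = 0.979). With its highest library 4.57-fold above its lowest, Sall4 had the smallest range of the 5 genes.

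Utf1 went the opposite way to Sox2 and Nanog and peaked at day 4. In PGK it was found at 36.0 and 15.01 CPM at day 0, 328 and 128 CPM on day 4, 213 and 81.9 CPM on day 10, 78.1 and 62.3 CPM at days 19 to 23, and 95.1 and 106 CPM at days 27 to 30. In E14 it was found at 30.1 and 30.5 CPM at day 0, 367 and 238 CPM on day 4, 143 and 268 CPM on day 10, 69.7 and 35.7 CPM at days 19 to 23, and 115 and 90.4 CPM at days 27 to 30. Each later library exceeded the day 0 libraries of its line. At day 4 of PGK the diff2 library was well above the diff3 library, and day 10 overlapped day 4 in both lines.

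At day 4 Utf1 rose by 3.10 on the log2 scale in PGK (SE 0.58, edgeR adjusted p = 0.0058) and by 3.35 in E14 (SE 0.48, adjusted p = 0.00224). In PGK the day 4 rise was 3.86 without the diff2 library of day 0 and 2.33 without the diff2 library of day 4, both still called (adjusted p = 0.0100 and 0.0209). Its late change was 1.91 in PGK (SE 0.56, adjusted p = 0.0312) and 1.76 in E14 (SE 0.45, adjusted p = 0.0283). These late calls were fragile. In PGK the adjusted p was 0.151 without the diff3 library of day 0, where the rise was 1.41, and 0.0738 and 0.116 without the diff2 or the diff3 library of days 27 to 30. In PGK the rise was 2.67 without the diff2 library of day 0 and remained called (0.0279), and with no low-count filter the adjusted p was 0.128. In E14 it was 0.0748 without the diff3 library of day 0, 0.153 and 0.0697 without the diff2 or the diff3 library of days 27 to 30, 0.0864 without both shallow libraries and 0.0521 with a term for the library code that 6 titles of diff2 carry.

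**Figure D2:**
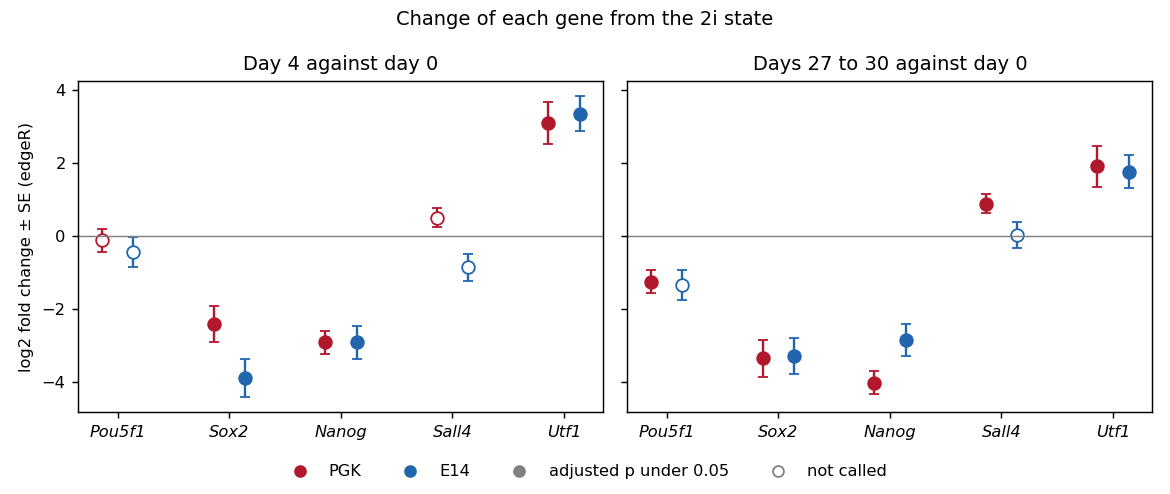
Log2 fold change from edgeR with its standard error for each gene at day 4 against day 0 (left panel) and days 27 to 30 against day 0 (right panel), PGK in red left of E14 in blue, filled where the adjusted p was under 0.05. Nanog and Sox2 lay between −2.42 and −4.02 in both panels and Utf1 between 1.76 and 3.35, whereas Pou5f1 and Sall4 were called in PGK at days 27 to 30 and nowhere else.

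Counted together, 3 of the 5 genes were called at day 4 in PGK, 1 higher and 2 lower, where 14.8% of the 15284 genes tested were called. In E14 the count at day 4 was again 3, Utf1 higher and Sox2 and Nanog lower, where 9.56% of 14501 genes were called. At days 27 to 30 against day 0, 5 of 5 were called in PGK, where 25.1% of all genes were, and 3 of 5 in E14, where 13.7% were. The same counts were called with the experiment as a replicate block. The median log2 fold change over all genes was −0.01 at day 4 and −0.06 at days 27 to 30 in PGK and 0.15 and 0.19 in E14, and the E14 medians were 0.16 and 0.19 with RLE size factors, 0.01 and 0.13 with no low-count filter and 0.01 and 0.07 with DESeq2, which took in more genes.

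After day 4 no step from one stage to the next was called for any of the 5 genes by edgeR. From day 4 to day 10, 1.51% of all genes were called in PGK and 0.186% in E14. From day 10 to days 19 to 23, and from there to days 27 to 30, 0% were called in either line. Of the 5 genes, 3 had an unadjusted p under 0.05 at day 10 against day 4 in PGK, where DESeq2 called 1, and 0 had one in E14, where DESeq2 called 0. At days 19 to 23 against day 10 these counts were 0 and 0 in PGK and 4 and 1 in E14, and at days 27 to 30 against days 19 to 23 they were 0 and 0 in PGK and 1 and 0 in E14. Over all genes an unadjusted p under 0.05 was found at day 10 against day 4 for 1880 of 15284 in PGK and 1250 of 14501 in E14. At the later steps, in order, it was found for 208 and 231 in PGK and for 938 and 106 in E14.

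Steps with an unadjusted p under 0.05 were found in PGK at day 10 and in E14 from day 10 on. At day 10 against day 4 in PGK, Sox2 had a log2 fold change of −1.23 (SE 0.47, edgeR adjusted p = 0.308), Nanog −1.09 (SE 0.29, adjusted p = 0.119) and Pou5f1 −0.89 (SE 0.31, adjusted p = 0.251). DESeq2 called that of Nanog (adjusted p = 0.0127). With each library left out in turn these steps ranged over −1.81 to −0.30 for Sox2, lowest without the diff3 and highest without the diff2 library of day 4, over −1.40 to −0.72 for Nanog, with the same 2 libraries, and over −1.48 to −0.48 for Pou5f1, lowest without the diff2 and highest without the diff3 library of day 10. For Nanog the step was called without the diff3 library of day 4 (adjusted p = 0.0463).

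At days 19 to 23 against day 10 in E14, Utf1 had −2.02 (SE 0.45, edgeR adjusted p = 0.28), called by DESeq2 (0.00768), Pou5f1 −1.49 (SE 0.42, adjusted p = 0.441), Nanog −1.01 (SE 0.42, adjusted p = 0.735) and Sall4 0.86 (SE 0.36, adjusted p = 0.735). Leaving out the diff3 library of day 10 brought Pou5f1 to −0.81 and Utf1 to −1.42, and leaving out the diff2 library of day 10 brought them to −1.89 and −2.39. Without the 6 libraries whose titles carry a code, which leaves 1 library a group at days 0, 4 and 10 and assumes that it varies like the others, the Pou5f1 step was called at day 10 of PGK (−1.31, adjusted p = 0.00884) and at days 19 to 23 of E14 (−1.88, adjusted p = 0.00554).

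The lines were then set against each other at each stage. Of the 5 genes, 0 differed between PGK and E14 by the edgeR test at day 0, day 4, day 10, days 19 to 23 or days 27 to 30, where 0.509%, 0.165%, 0.0636%, 0.0636% and 0.0572% of 15732 genes were called. By DESeq2 0 were called as well. An unadjusted p under 0.05 was found for 1931, 1054, 579, 715 and 385 of all 15732 genes, in the same order of stages. Among the 5 genes it was found for 1 at day 0, Sall4 with 106 ± 23.3 CPM in PGK and 198 ± 34.5 CPM in E14 (log2 difference −0.83, SE 0.32, edgeR adjusted p = 0.294). At day 10 it was found for 1, Sox2 with 35.0 ± 7.18 CPM in PGK and 86.0 ± 46.0 CPM in E14 (−1.34, SE 0.50, adjusted p = 1), and at the other 3 stages for 0.

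Whether a change differed between the lines was tested on the difference of the 2 changes. At day 4 against day 0, 0 of 5 were called by edgeR and by DESeq2 (0.0763% of all genes), and at days 27 to 30 against day 0 likewise 0 of 5 (0.0509%). An unadjusted p under 0.05 was found for 2 and 1 of the 5, beside 1165 and 1006 of all 15732 genes. Among the 5 genes, the largest difference at day 4 in units of its error was that of Sall4, whose change in PGK minus that in E14 was 1.39 (SE 0.45, adjusted p = 0.414), followed by Sox2 with 1.52 (SE 0.71, adjusted p = 0.661). With each library left out in turn the Sox2 difference ranged over 0.53, without the diff2 library of PGK at day 4, to 2.09, without the diff3 library of that group, and was not called. For Nanog the difference at day 4 was 0.02 (SE 0.53). With 2 libraries a group these tests are weak, and a p that misses the threshold does not show that the lines acted alike.

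**Figure D3:**
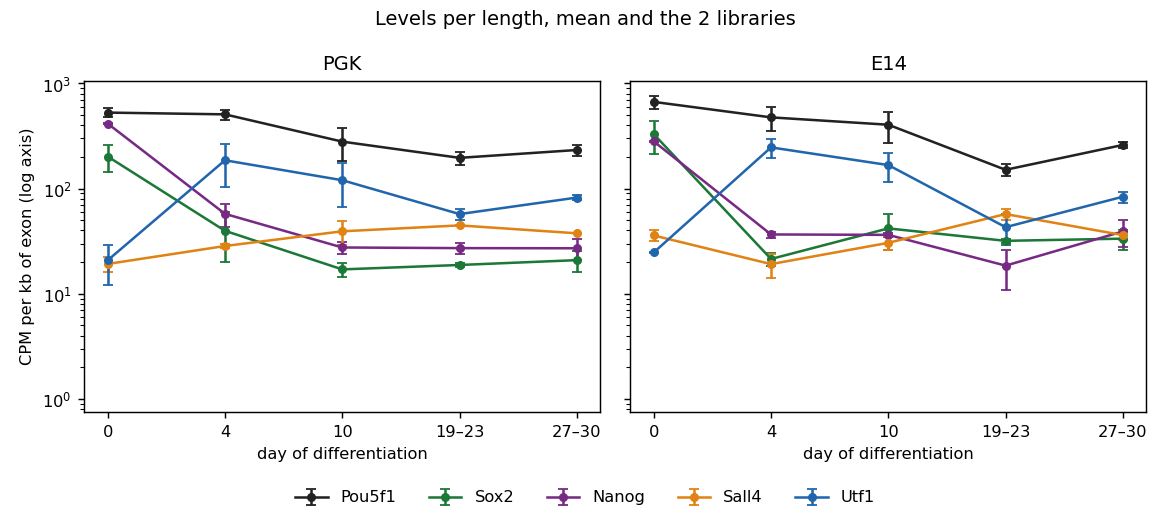
CPM per kilobase of exon on a log axis by day of differentiation in PGK (left) and E14 (right), with a line through the mean of 2 libraries and bars that reach to the lower and the higher library. Pou5f1 was the highest in every group, and Utf1 came from the bottom pair at day 0 to the second place at day 4 in both lines.

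Levels of different genes were compared per kilobase of exon, since the exons of Sall4 sum to 5536 bases and those of Utf1 to 1227, beside 2248 for Pou5f1, 2242 for Nanog and 2057 for Sox2. At day 0 in PGK the order was Pou5f1 (528 ± 71.6 CPM per kb), Nanog (415 ± 2.34), Sox2 (202 ± 83.9), Utf1 (20.8 ± 12.1) and Sall4 (19.2 ± 4.21). Only the last 2 overlapped there. In E14 at day 0 the order was Pou5f1 (668 ± 128), Sox2 (330 ± 161), Nanog (281 ± 5.27), Sall4 (35.8 ± 6.24) and Utf1 (24.7 ± 0.256), and Sox2 overlapped Nanog, with 216 and 444 against 285 and 278 CPM per kb.

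At day 4 Utf1 had become the second highest in both lines, with 267 and 105 CPM per kb in PGK and 299 and 194 in E14, below Pou5f1 in each library. The PGK order at days 27 to 30 was Pou5f1 (233 ± 40.9), Utf1 (82.2 ± 6.53), Sall4 (37.5 ± 0.184), Nanog (27.05 ± 8.70) and Sox2 (20.9 ± 6.78). In E14 it was Pou5f1 (260 ± 23.7), Utf1 (83.7 ± 14.2), Nanog (39.1 ± 15.6), Sall4 (36.1 ± 5.08) and Sox2 (33.4 ± 10.4). Nanog overlapped Sox2 in the late groups of both lines, and in E14 both overlapped Sall4, so the order of those 3 genes there is not beyond the spread of the libraries.

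**Figure D4:**
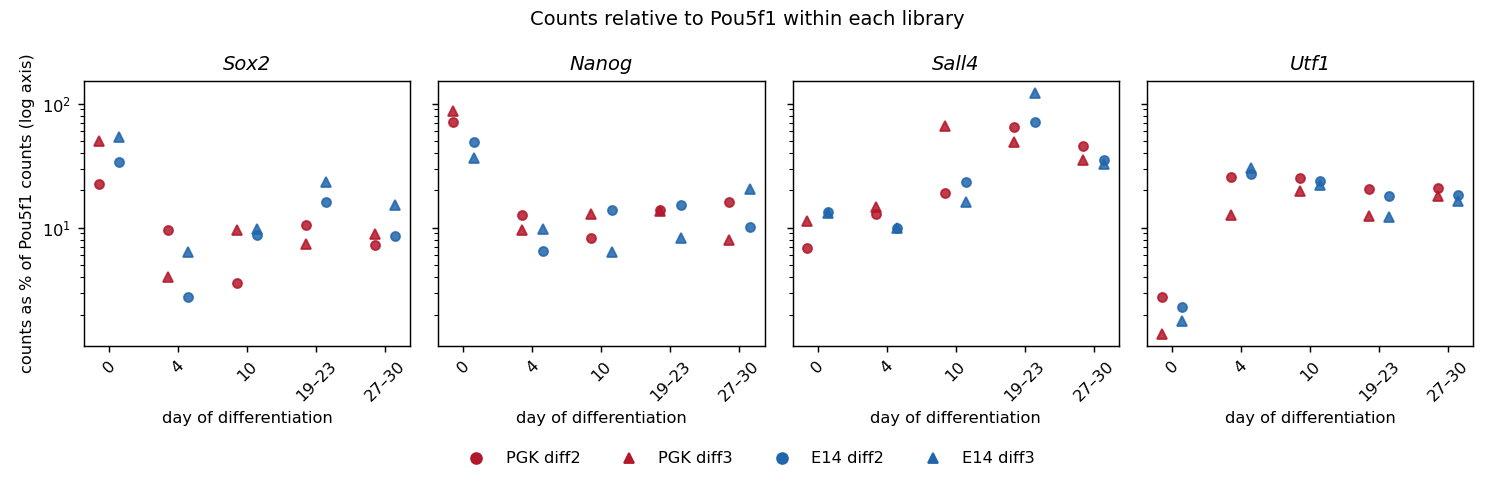
Counts of Sox2, Nanog, Sall4 and Utf1 as a percentage of Pou5f1 counts in the same library, on a log axis, by day of differentiation, PGK in red left of E14 in blue, circles for diff2 and triangles for diff3. At day 4 Sox2 and Nanog reached at most 12.7% of Pou5f1 counts and Utf1 at least 12.6%. The Sall4 share stood above its day 0 range at days 27 to 30, where Pou5f1 itself was lower.

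The balance of the factors was measured as counts per Pou5f1 count in the same library, which no scaling of libraries affects. These shares are not corrected for gene length and are compared between stages only. Sox2 counts were 2.78% to 9.61% of Pou5f1 counts over the 4 libraries of day 4, against 22.5% to 53.5% at day 0. The log2 ratio was lower by 2.88 (mean −4.29 ± 0.78 at day 4, −1.40 ± 0.58 at day 0, SD, n = 4 each, exact two-sided permutation test p = 0.0286, adjusted over 8 tests p = 0.0327). That p of 0.0286 is the smallest that 4 against 4 libraries can give, and it was also found for 6 further ratios below. The test does not use the pairing of libraries by line and experiment. Permuted within the 4 pairs, no p can be under 0.125, each of these 7 ratios reached that value, and none would be called, though 4 of 4 pairs showed the same direction.

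Nanog counts were 6.49% to 12.7% of Pou5f1 counts at day 4, against 36.5% to 87.0% at day 0, a log2 difference of −2.63 (exact permutation p = 0.0286). Utf1 counts were 12.6% to 30.1% of Pou5f1 counts at day 4, against 1.397% to 2.77% at day 0, a log2 difference of 3.51 (exact permutation p = 0.0286). For Sall4 the shares were 9.88% to 14.8% at day 4, against 6.90% to 13.4% at day 0, overlapping ranges with a log2 difference of 0.11 (exact permutation p = 0.8, adjusted p = 0.8). The Sall4 ratio moved in opposite directions in the 2 lines, by 0.64 in PGK and −0.42 in E14.

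The ratio of all 4 genes to Pou5f1 at days 27 to 30 lay outside its day 0 range in all 4 libraries, each with an exact permutation p = 0.0286 (adjusted p = 0.0327) and a p of 0.125 within pairs. The log2 differences were −1.98 for Sox2, −2.17 for Nanog, 1.77 for Sall4 and 3.20 for Utf1. These ratios also move with Pou5f1, whose CPM was lower in every late library than at day 0 of its line. Sall4 itself changed by 0.89 in PGK and 0.02 in E14 on the log2 scale, beside −1.26 and −1.35 for Pou5f1. In E14 edgeR called neither change. Sall4 counts were 32.9% to 45.5% of Pou5f1 counts, against 6.90% to 13.4% at day 0, and Utf1 counts 16.5% to 20.7%, against 1.397% to 2.77%. Sox2 stood at 7.21% to 15.3% of Pou5f1 counts late, against 22.5% to 53.5% at day 0, and Nanog at 7.96% to 20.6%, against 36.5% to 87.0%. The 4 libraries of a stage come from 2 lines and 2 experiments and share their day 0 libraries with the comparisons above.

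Across the 20 libraries, as a description, the log2 CPM of Sox2 and Nanog had a Pearson r of 0.87, Pou5f1 and Nanog 0.73, and Pou5f1 and Sox2 0.61. Sall4 had r of −0.61 with Pou5f1 and −0.52 with Nanog, and Utf1 −0.62 with Sox2, −0.51 with Nanog and 0.11 with Pou5f1. The points share the 5 stages, the lines and the experiments, and many genes that separate day 0 from later stages give as high an r: 100 of 9430 genes ranked above Nanog in likeness to Sox2.

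Among 9431 genes with a mean of at least 10 CPM, the 3 most like Pou5f1 over the 20 libraries were Atp5a1 (r = 0.93), a subunit of the mitochondrial ATP synthase, Nol6 (0.91), a nucleolar protein, and Exosc10 (0.90), a nuclear exosome subunit. Atp5a1 held 1049 to 1217 CPM at days 27 to 30, against 1287 to 1806 CPM at day 0. The genes most like Sox2 were Pias2 (0.95), a SUMO ligase, Gstm1 (0.95), a glutathione transferase, and Creg1 (0.94). For Nanog they were Jam2 (0.96), a junctional adhesion molecule, Nfatc2ip (0.96) and Arl14epl (0.96). Jam2 held 0.240 to 5.58 CPM at days 27 to 30, against 301 to 750 CPM at day 0.

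Genes like Sall4 had lower values of r, among them Id3 (0.85), an inhibitor of bHLH factors, and Sema6d (0.84), a semaphorin. Sema6d held 62.9 to 93.4 CPM at days 27 to 30, against 0 to 18.4 CPM at day 0. For Utf1 they were Mrps27 (0.91), a mitochondrial ribosomal protein, Rhbdf1 (0.90) and Ptpn3 (0.90), a tyrosine phosphatase. Rhbdf1 held 34.6 to 64.9 CPM at day 4, against 2.38 to 14.4 CPM at day 0.

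**Figure D5:**
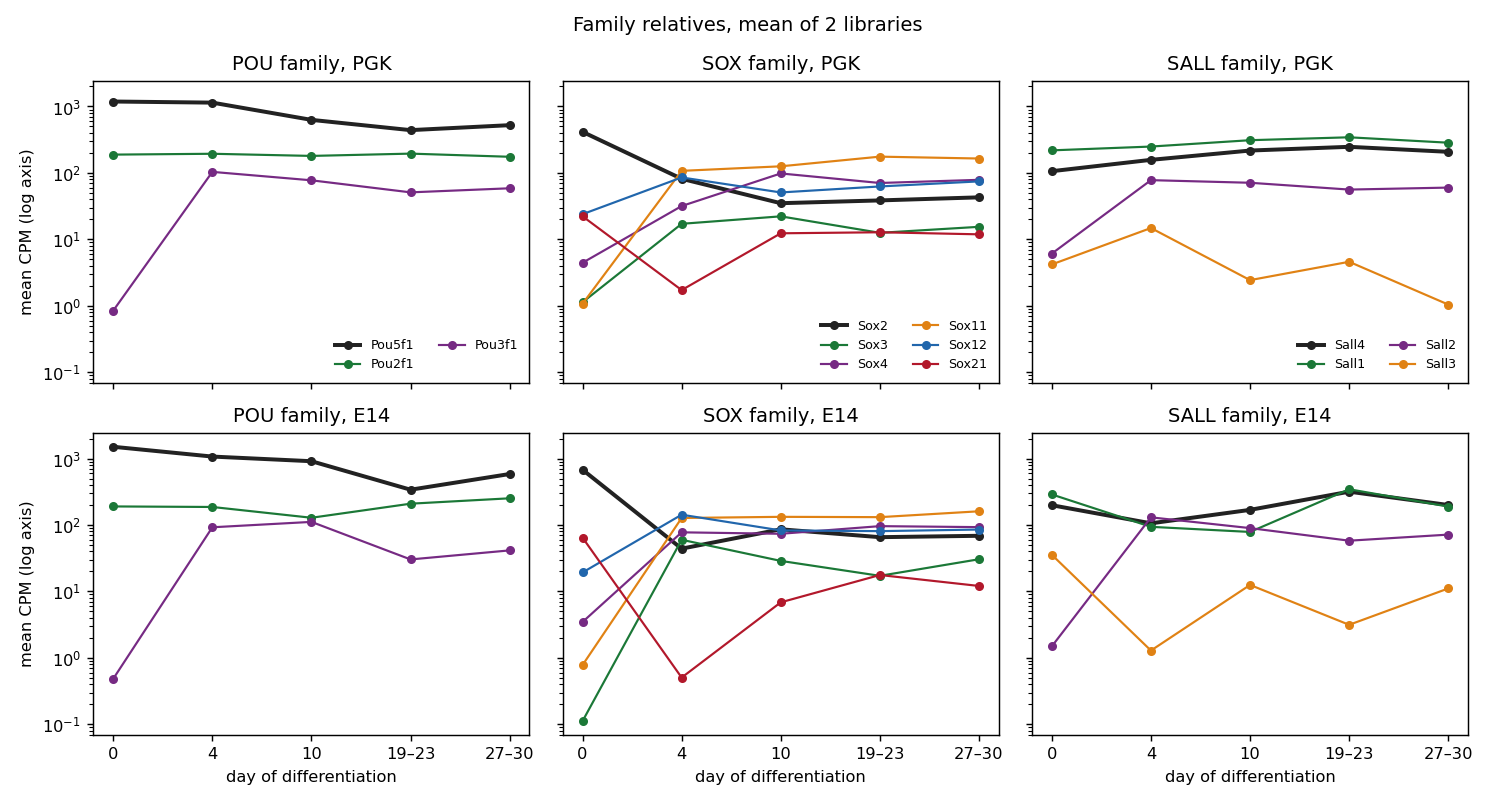
Mean CPM of 2 libraries on a log axis by day of differentiation for Pou5f1, Sox2 and Sall4 (thick black lines) and relatives from their families, PGK in the upper row and E14 in the lower. Sox3, Sox4, Sox11, Pou3f1 and Sall2 were higher at day 4 than at day 0 in both lines, and Sox11 and Sox12 lay above Sox2 in mean CPM at day 4.

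Relatives that bind like sequences were examined next, from lists of 14 further POU, 18 further SOX and 3 further SALL genes. Of the POU genes 10 were tested in PGK, and at day 4 there 2 were higher (8.35% of all genes) and 1 lower (6.44%), with a median log2 change of −0.30 beside −0.01 over all genes. The higher were Pou3f1 and Pou4f3, the lower Pou6f1. Pou4f3 lost its call when either library of day 0 or of day 4 was left out (edgeR adjusted p = 0.0727 to 0.153). Pou6f1 lost its call without the diff3 library of day 0 (0.136) or the diff2 (0.206) or the diff3 library (0.0833) of day 4. In E14 1 of 9 POU genes was higher, where 5.16% of all genes were higher and 4.4% lower. The median log2 change there was 2.06, or 1.81 with the 1 gene that had no counts in a group taken at its bound. Over all genes of E14 it was 0.15. Pou3f1 (Oct6), a factor of the primed epiblast, held 137 and 70.1 CPM at day 4 in PGK, against 1.46 and 0.234 CPM at day 0, and rose by 7.02 on the log2 scale (SE 0.77, edgeR adjusted p = 0.000308). In E14 Pou3f1 held 128 and 56.9 CPM at day 4, against 0.970 and 0 CPM, and rose by 7.09 (SE 0.83, adjusted p = 0.000826). Pou2f1 (Oct1), found in most cell types, held 185 and 204 CPM at day 4 in PGK, against 157 and 220 CPM, and was not called (adjusted p = 0.972).

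Of the SOX genes 16 were tested in PGK and 4 were higher (8.35% of all genes) and 2 lower (6.44%) at day 4, with a median log2 change of 1.56, or 1.24 with the 1 gene that had no counts in a group taken at its bound. In E14 3 of 15 were higher (5.16%) and 1 lower (4.4%), with a median of 0.99 beside 0.15 over all genes. Sox11, of the SoxC group, held 76.3 and 139 CPM at day 4 in PGK, against 1.54 and 0.608 CPM at day 0 (log2 6.67, SE 0.47, edgeR adjusted p = 4.04e-05), and 95.9 and 159 CPM in E14, against 0.671 and 0.888 CPM (7.43, SE 0.70, adjusted p = 0.000387). Sox4 of the same group rose by 2.77 in PGK (SE 0.27, adjusted p = 0.00018) and by 4.28 in E14 (SE 0.85, adjusted p = 0.0119), where the call was lost without either day 4 library (adjusted p = 0.0562 for diff2, 0.0607 for diff3).

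Sox3, the closest relative of Sox2 together with Sox1, held 27.002 and 7.307 CPM at day 4 in PGK, against 2.03 and 0.234 CPM at day 0 (log2 3.92, SE 0.94, edgeR adjusted p = 0.0187, and 0.0822 without the diff2 library of day 4). In E14 Sox3 held 29.2 and 90.6 CPM, against 0.224 and 0 CPM (8.42, SE 1.09, adjusted p = 0.00124). Sox1 was not called in either line (adjusted p = 0.426 and 0.228). Sox12 rose by 1.77 in PGK (SE 0.35, adjusted p = 0.00747). In E14 it missed the threshold (adjusted p = 0.126), and its day 0 libraries disagreed, with 38.3 CPM in diff2 and 0.296 CPM in the shallow diff3 library, without which it was called (adjusted p = 0.017).

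Sox21 fell in both lines at day 4, with 1.12 and 2.33 CPM in PGK, against 9.82 and 34.7 CPM at day 0 (log2 −3.73, SE 0.68, edgeR adjusted p = 0.0051). In E14 it held 0.515 and 0.495 CPM, against 11.04 and 118 CPM (−6.88, SE 1.301, adjusted p = 0.00903) and lost its call without the diff2 (0.0984) or the diff3 library (0.0947) of day 4. Sox21 held 14.5 and 9.29 CPM in PGK and 6.54 and 17.6 CPM in E14 at days 27 to 30 and was not called against day 0 (adjusted p = 0.262 and 0.136). Sox17, an endoderm factor that can pair with Oct4, held 83.2 and 68.7 CPM at days 27 to 30 in PGK, against 1.70 and 0.374 CPM at day 0, and 57.5 and 57.4 CPM in E14, against 0.448 and 0.296 CPM, and was called in both (adjusted p = 0.000586 and 0.000447).

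Of the other SALL genes, Sall2 rose in both lines by day 4, with 103 and 53.2 CPM in PGK, against 8.44 and 3.79 CPM at day 0 (log2 3.62, SE 0.43, edgeR adjusted p = 0.000456), and 170 and 90.6 CPM in E14, against 2.98 and 0 CPM (6.11, SE 0.84, adjusted p = 0.00172). Sall1 held 364 and 135 CPM at day 4 in PGK, against 149 and 289 CPM, and was not called (adjusted p = 0.896). In E14 Sall1 held 128 and 59.9 CPM, against 295 and 281 CPM, and fell by 1.58 (SE 0.42, adjusted p = 0.0404), which did not hold without the diff3 library of day 4 (0.239) or of day 0 (0.056). Sall3 was not called in either line (adjusted p = 0.186 and 0.153).

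A list of 10 genes with known Oct4 and Sox2 control stood for the targets, of which 2 were higher (8.35% of all genes) and 2 lower (6.44%) at day 4 in PGK and 1 higher (5.16%) and 3 lower (4.4%) in E14. The median log2 change was 0.16 in PGK and −0.40 in E14, beside −0.01 and 0.15 over all genes. Fbxo15, an F-box gene of naive cells, held 72.8 and 20.8 CPM at day 4 in PGK, against 430 and 321 CPM at day 0 (log2 −3.08, SE 0.66, edgeR adjusted p = 0.0111), lost without the diff2 library of day 0 (0.0527) or the diff3 library of day 4 (0.0531). In E14 Fbxo15 held 4.86 and 5.44 CPM, against 366 and 333 CPM (−6.07, SE 0.56, adjusted p = 0.000387). Spp1, which encodes osteopontin, held 61.9 and 24.9 CPM in PGK, against 1108 and 1136 CPM (adjusted p = 0.000641), and 21.4 and 98.998 CPM in E14, against 1168 and 1139 CPM (adjusted p = 0.00265).

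Fgf4, the autocrine growth factor of these cells, held 154 and 25.2 CPM at day 4 in PGK, against 355 and 247 CPM, and missed the threshold (edgeR adjusted p = 0.0832, and 0.041 with the replicate block). In E14 it fell by 2.80 (SE 0.41, adjusted p = 0.00229). Lefty1, a Nodal antagonist, was the target that rose in both lines, with 178 and 67.1 CPM at day 4 in PGK, against 2.60 and 7.48 CPM (adjusted p = 0.000821), and 192 and 130 CPM in E14, against 6.27 and 9.77 CPM (adjusted p = 0.000592). Mycn rose in PGK by 0.97 (SE 0.28, adjusted p = 0.0425). Without the diff2 library of day 0 the adjusted p was 0.177, and the call was lost too without the diff2 (0.141) or the diff3 library (0.0597) of day 4. Tdgf1, Nodal, Zscan10, Jarid2 and Trim71 were not called at day 4 in either line.

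Of the 10 targets, 1 was higher and 4 were lower at days 27 to 30 in each line, where 13% of all genes were higher and 12% lower in PGK and 8.73% and 4.99% in E14. Tdgf1, the Nodal co-receptor Cripto, joined the lower ones, with 48.0 and 48.0 CPM in PGK, against 494 and 178 CPM at day 0 (edgeR adjusted p = 0.00913), and 56.6 and 56.4 CPM in E14, against 558 and 193 CPM (adjusted p = 0.0081). Without one of the 2 late libraries its adjusted p was 0.0597 or 0.0707 in PGK and 0.0597 or 0.0611 in E14, and in PGK it was 0.0729 without the diff2 library of day 0.

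Proteins that bind Oct4, Nanog or Sall4, or that share their work, formed a list of 20, of which 3 were higher (8.35% of all genes) and 1 lower (6.44%) at day 4 in PGK and 2 higher (5.16%) and 2 lower (4.4%) in E14, with medians of 0.24 and 0.17. Each count lies within 2 genes of what the share of all genes gives for 20. Lin28b, an RNA-binding protein that blocks let-7, held 102 and 154 CPM at day 4 in PGK, against 7.79 and 15.9 CPM (edgeR adjusted p = 0.00024), and 131 and 240 CPM in E14, against 10.1 and 21.03 CPM (adjusted p = 0.00119). Wdr5, a subunit of histone H3K4 methyltransferases, fell by 1.32 in PGK (SE 0.22, adjusted p = 0.00325) and had a log2 fold change of −1.25 in E14 (SE 0.34, adjusted p = 0.0429), where the call was lost without the diff3 library of day 0 (0.0742) or of day 4 (0.248). Arid3b rose in PGK (1.39, SE 0.22, adjusted p = 0.0024) and was not called in E14 (0.07, SE 0.39, adjusted p = 0.939).

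The 12 NuRD genes, the complex that Sall4 recruits, gave 0 calls by edgeR in each of the 4 comparisons with day 0. Of all genes, 14.8% were called at day 4 and 25.1% at days 27 to 30 in PGK, and 9.56% and 13.7% in E14. An unadjusted p under 0.05 was found for 3 of the 12 at day 4 and 3 at days 27 to 30 in PGK and for 2 and 2 in E14. Over all genes it was found for 4537 and 5858 of 15284 in PGK and for 3593 and 4266 of 14501 in E14. DESeq2 called 2, 2, 1 and 0 of the 12 in the same order, and limma 0, 1, 0 and 0. Their summed level was 3078 to 3348 CPM at day 4, against 2823 to 3159 CPM at day 0, in PGK, and 3013 to 3340 CPM, against 2473 to 2823 CPM, in E14. The smallest adjusted p at day 4 in PGK was that of Mbd3 (log2 0.90, SE 0.27, edgeR adjusted p = 0.0534), which held 191 and 110 CPM at day 4, against 82.3 and 72.0 CPM at day 0, and was called by DESeq2 (0.0229), with the replicate block (0.0441) and without the diff3 library of day 4 (0.0137). Chd4, the remodelling subunit, held 880 and 719 CPM at day 4 in PGK, against 655 and 533 CPM (adjusted p = 0.229).

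Genes used as markers of other cell types moved over the same stages. Some of them stand in more than 1 list, so the sums are not independent. The 10 endoderm markers, Foxa2 and Sox17 among them, summed to 1043 to 1292 CPM at days 27 to 30 in PGK, against 29.03 to 30.8 CPM at day 0, and to 1174 to 1264 CPM in E14, against 39.0 to 67.5 CPM. Of them 9 of 10 rose in PGK, where 13% of all genes were higher, and 10 of 10 in E14, where 8.73% were, and Shh alone had no counts at day 0 of PGK. The 10 primitive streak genes summed to 352 to 374 CPM late in PGK, against 34.8 to 35.5 CPM, and to 384 to 392 CPM in E14, against 23.4 to 38.8 CPM, with 6 of 10 risen in each line. Mixl1, Mesp1 and Evx1 had no counts at day 0 of E14. In the day 4 libraries of PGK the streak sum was 149 CPM in diff2 and 937 CPM in diff3. There diff3 was the lower of the pair for Pou5f1, Sox2, Nanog, Sall4 and Utf1. Other groups did not share this order. At day 10 of E14 the sum was 167 CPM in diff2 and 743 CPM in diff3. Here diff3 was the higher for Pou5f1, Sox2, Sall4 and Utf1 and the lower for Nanog. At day 10 of PGK (459 and 849 CPM) diff3 was the higher for Sox2 and Sall4 and the lower for Pou5f1, Nanog and Utf1. The 12 fibroblast markers summed to 1140 to 1274 CPM late in PGK, against 139 to 172 CPM at day 0, with 9 of 12 tested risen, and to 631 to 1053 CPM in E14, against 226 to 263 CPM, with 6 of 11 risen. The 12 neuroectoderm markers summed to 547 to 585 CPM late in PGK, against 64.1 to 66.7 CPM, with 3 of 10 higher and 1 lower, and to 492 to 529 CPM in E14, against 54.7 to 93.3 CPM, with 2 of 8 higher. Of 12 trophoblast markers, summing to 417 to 495 CPM late in PGK, against 189 to 388 CPM, 2 of 11 were higher and 4 lower, and in E14, with 318 to 475 CPM, against 206 to 391 CPM, 2 of 12 were higher and 3 lower. Extraembryonic endoderm markers, 10 in all, summed to 1046 to 1168 CPM late in PGK, against 577 to 687 CPM, with 2 of 8 higher and 1 lower, and to 810 to 862 CPM in E14, against 644 to 724 CPM, with 3 of 8 higher and 1 lower. Beside these counts of lower genes, 12% of all genes were called lower at days 27 to 30 in PGK and 4.99% in E14. At day 0 Col3a1, Acta2 and Dcn had no counts in PGK and Col1a2, Dcn and Lum none in E14. Whether such cells were present, and what part they had in the levels of the 5 genes, was not tested.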

How the data were processed

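RNA was sequenced from 20 mouse cell samples with an Illumina stranded mRNA protocol, per the labels' protocols. The authors deposited raw counts per gene and log2 values per gene for each library. Per the submitters' processing notes, CASAVA 1.8.2, Cuffdiff and DESeq2 were used and the build was GRCm38 (mm10), with no roles given. Not given in the sources used here: aligner, annotation and strand setting.

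From the deposited counts, CPM was computed as the count divided by the library total and multiplied by 1000000. Changes were tested with edgeR 4.0.16 (R 4.3.3) quasi-likelihood tests, TMM scaling, a minimum count of 10, and Benjamini-Hochberg adjustment over all genes at 0.05, within each line on 10 libraries (5 residual degrees of freedom) and across lines on 20. DESeq2 1.42.0 and limma 3.58.1 (limma on the deposited log2 values) were alternatives, with other scaling, no filter, a replicate block, a library code term and each library left out. The scripts were tested on simulated data. Ratios to Pou5f1 were compared with exact permutation tests, over all libraries and within pairs. Intervals of counting error were not computed. The edgeR p-values rest on a count model whose spread is estimated over all libraries of a fit, 10 within a line and 20 across lines. They do not measure the spread of the 2 libraries of a group alone. The permutation tests compare 4 libraries with 4, taken from both lines.

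Named were the 5 genes, their 3 most similar genes by Pearson correlation of log2 CPM (prior count 2, mean of at least 10 CPM), tested POU, SOX and SALL relatives and Oct4 and Sox2 targets, and up to 4 genes of each other list, those with the smallest adjusted p at day 4 in PGK. For Sall4, 1 of the 3 similar genes is not reported here. Nr6a1 and the markers named for having no counts were chosen after their values were seen. The members and lists were chosen with earlier results of these data known. The replicate number is the experiment given in the labels, which pairs the samples. Deviations of same-numbered libraries from their group means correlated between −0.226 and 0.532 over 11500 genes.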

Additional observations from a re-analysis of the deposited data

How the results depend on the processing

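Of the settings tried for the 5 genes, 952 kept their side of the threshold, 21 gained a call and 17 lost one. Most of these settings belong to results that were not called, where no call could be lost. All 17 lost calls fall on comparisons with day 0. The call of Utf1 at days 27 to 30 was lost in 4 of 12 settings in PGK and 5 of 13 in E14. In 73 of the 990 the sign differed from the reported value, in 32 gene and comparison pairs, and neither value was called in any of the 73. With the experiment as a replicate block the number of the 5 genes called was again 3 and 5 in PGK and 3 and 3 in E14 at day 4 and at days 27 to 30 against day 0, and no call among them changed. At day 10 against day 4 in PGK the count of 0 became 1 with no low-count filter, 2 with the library code term, 1 with DESeq2, 2 with the coded libraries left out, and 0 to 1 when each library was left out in turn. At days 27 to 30 against day 0 in PGK the count of 5 became 2 to 4 when each library was left out. At day 4 against day 0 in E14 the count of 3 became 5 with the coded libraries left out, at day 10 against day 4 the count of 0 became 1 with them left out, and at days 19 to 23 against day 10 it became 1 with no filter, 1 with DESeq2 and 2 with them left out. At days 27 to 30 against day 0 in E14 the count of 3 became 4 with DESeq2 and with limma. There Pou5f1 also gained a call with RLE size factors, no low-count filter and all 20 libraries in one fit. Utf1 lost its call there with the library code term. The E14 day 4 call of Nanog that depended on the shallow libraries is given above. Leaving out the coded or both shallow libraries was chosen after seeing the data. With a replicate block, as a permutation within pairs chosen after seeing the data, the log2 ratios to Pou5f1 kept their size (day 4: Sox2 −2.88, Nanog −2.63, Utf1 3.51, days 27 to 30: Sox2 −1.98, Nanog −2.17, Sall4 1.77, Utf1 3.20) and lost their calls at the smallest possible exact p of 0.125. The Sall4 to Pou5f1 log2 ratio at day 4 was 0.64 in PGK alone and −0.42 in E14 alone, and −0.11 to 0.21 when each library was left out, with a reversed sign without the diff2 library of PGK at day 0 (−0.11) or the diff3 library of PGK at day 4 (−0.0020). At days 27 to 30 it was 2.17 in PGK alone and 1.37 in E14 alone. Sall1 at day 4 of PGK turned to −1.16 with the coded libraries left out, and Nodal at days 27 to 30 of PGK ranged over −0.94 to 1.08 when each library was left out. The causes were not tested. Over all genes, calls at day 4 against day 0 ranged over 1366 to 3698 in PGK and 474 to 6812 in E14, and at days 27 to 30 over 2208 to 5114 in PGK and 645 to 8039 in E14. At day 10 against day 4 they ranged over 52 to 855 in PGK and 0 to 1111 in E14, and at days 19 to 23 against day 10 over 0 to 5 in PGK and 0 to 1673 in E14. Having 2 libraries a group and the shallow E14 diff3 libraries limit the precision.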
